A study of Drosophila melanogaster with 16 samples.

Results

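The change of the clamp RNAi effect between 2 windows of embryonic development was described for 6939 of the 15682 genes that both deposited comparison tables hold. The members are the genes with a mean normalised count of 20 or more at both 2-4 hr and 0-2 hr after egg lay and a finite log2 change at both. For each gene, the log2 change between the conditions at 0-2 hr was subtracted from that at 2-4 hr, and the result is called its move: a positive move means that condition B stood higher relative to condition A at 2-4 hr than at 0-2 hr. The move is a difference between means taken from tables that the authors normalised separately. Neither table holds values of single libraries, so the move of a gene has no replicate spread and was not tested.

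The series has 16 RNA-seq libraries of mixed-sex Drosophila melanogaster embryos, 4 in each of 4 groups: clamp RNAi at 2-4 hr, clamp RNAi at 0-2 hr, MTD control at 2-4 hr and MTD control at 0-2 hr. Mothers of all groups carried the maternal triple driver, which expresses Gal4 in the female germline from 3 insertions, P{COG-Gal4:VP16} on the X, P{Gal4-nos.NGT}40 on one autosome and P{nos-Gal4-VP16} on another. Clamp RNAi mothers carried the drivers over other chromosomes, including an X marked y[1] sc[*] v[1], together with the hairpin P{TRiP.GLC01858}attP2, whereas the control strain had the drivers and no hairpin. All mothers were virgins of 3-5 days mated to yw males, so the RNAi acts through the mother and the embryos also receive a paternal genome from yw. The embryos were dechorionated, and libraries were made from total RNA with depletion of ribosomal RNA.

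CLAMP is a zinc finger protein that binds GA repeats and is known for recruiting the dosage compensation complex to the male X chromosome and for opening chromatin at early zygotic genes. In the first hours the fly embryo runs on RNA loaded by the mother. The zygotic genome is then switched on in waves while maternal RNA is cleared, and the embryo cellularises and lays out its segments. A comparison of both windows therefore sets an embryo that holds mostly maternal RNA beside one that has begun broad zygotic transcription. In whole embryos, fewer cells that express a gene and less of its RNA per cell cannot be told apart.

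The tables call the conditions A and B, and no header or label says which genotype each one is. Clamp, the target of the hairpin, was far lower in condition B at both times. Its mean normalised count, computed from the mean and fold change in the authors' deposited tables with 4 libraries in each condition, was 83 in B and 3225 in A at 2-4 hr, and 42.3 in B and 2789 in A at 0-2 hr. The log2 changes of Clamp in the authors' deposited tables were -5.28 and -6.04, which are 38.8-fold and 66.0-fold lower in B. All levels below are such means, in normalised counts, and are not scaled for gene length. A level at 2-4 hr and one at 0-2 hr come from separate normalisations, so a rise or fall of a level over time is approximate. Means of markers of older embryos also differed between the conditions. Summed over 15 late muscle genes, the level was 8961 in B and 13773 in A at 2-4 hr. At 0-2 hr it was 7580 in B and 12069 in A. B was below A for 15 of 15 genes at 2-4 hr and 14 of 15 at 0-2 hr. Of the 13 that are members, 0 had a DESeq adjusted p under 0.05 at 2-4 hr and 1, Tm1, at 0-2 hr. Most of the muscle sums is Tm1. Without it they were 277 in B and 4198 in A at 2-4 hr, and 354 in B and 2916 in A at 0-2 hr. The sums without Tm1 were added after the values were seen. For 17 genes of late epidermis, gut and trachea, the sums were 58.1 in B and 718 in A at 2-4 hr, and 158 in B and 781 in A at 0-2 hr. B was below A for 9 of these 17 at 2-4 hr and 10 at 0-2 hr. Cpr65Ax1 was listed at 0 at both times, Jon25Bi at 2-4 hr and Cpr47Ea at 0-2 hr. For 13 late neuron genes, the sums were 2423 in B and 3181 in A at 2-4 hr, and 1689 in B and 1753 in A at 0-2 hr. The part of embryo age in the values that follow was not tested.

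A gene is called here where the authors' deposited table gives it a DESeq adjusted p under 0.05. Among the members, 13.3% were called higher in B and 15.4% lower at 2-4 hr, and 9.86% higher and 10.4% lower at 0-2 hr. Over all genes with an adjusted p in the authors' deposited tables, 7.38% of 14245 were called higher and 8.14% lower at 2-4 hr, and 5.56% of 13096 were called higher and 5.61% lower at 0-2 hr. In all, 1992 members were called at 2-4 hr and 1406 at 0-2 hr. Calls at both times numbered 599, which is 30.1% of the calls at 2-4 hr and 42.6% of those at 0-2 hr. Of these, 513 had the same direction and 86 opposite directions. The remaining calls comprised 576 genes higher and 817 lower at 2-4 hr alone, and 331 higher and 476 lower at 0-2 hr alone.

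Most genes moved little. The median move of the 6939 members was 0.026 on the log2 scale, with quartiles of -0.28 and 0.31, and 5028 genes (72.5%) moved by less than 0.5. A move of 1 or more, which is a 2-fold change of the ratio, was found for 338 genes (4.87%), of which 137 were called at neither time. Across the 6939 genes the log2 changes at both times had a Pearson correlation of 0.80 and a Spearman correlation of 0.30. Genes are not independent replicates, and both axes share the strains and the annotation, so these values only describe the tables. In the scatter plot, some large changes lie near the diagonal, such as that of Pvf2, others lie far from it, such as those of btd and kuk, and most genes form a cloud near 0.

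**Figure D1:**
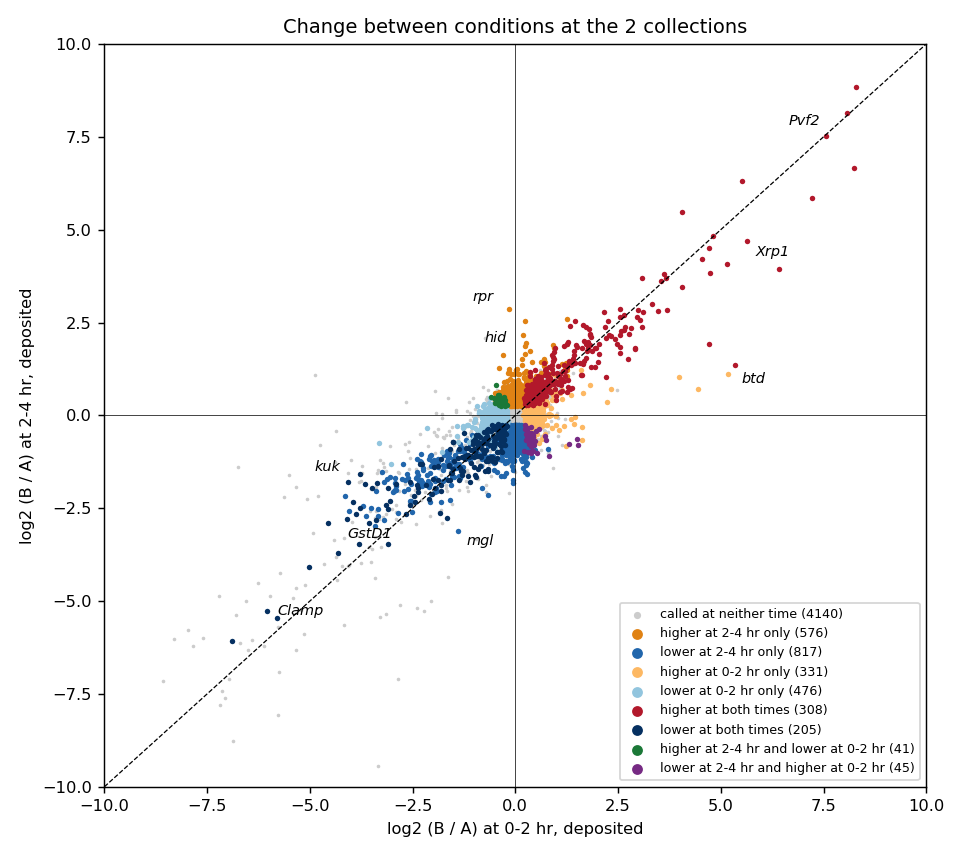
Deposited log2 change (B over A) at 2-4 hr on the vertical axis against that at 0-2 hr on the horizontal axis for the 6939 genes, coloured by when they were called. On the diagonal a gene has no move: btd lies far below it, at 1.36 for 2-4 hr and 5.34 for 0-2 hr, and rpr above it, at 2.87 for 2-4 hr and -0.14 for 0-2 hr.

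The head gap gene btd (buttonhead), a zinc finger transcription factor that patterns the head segments, was called higher in B at both times but by very different amounts. Its level was 826 in B and 322 in A at 2-4 hr, and 1331 in B and 32.8 in A at 0-2 hr. In the authors' deposited tables its log2 change was 1.36 at 2-4 hr (DESeq adjusted p = 4.59e-12) and 5.34 at 0-2 hr (6.05e-224), a move of -3.98. At 0-2 hr btd RNA was thus high in B and scarce in A; at 2-4 hr its level in A was higher than at 0-2 hr and that in B lower. Among the 2799 genes called at either time, only CG14110 had a larger downward move, and with a pseudocount of 10 the move was -2.09 for CG14110 and -3.63 for btd. CG14110 had 182 in B and 83.8 in A at 2-4 hr, and 102 in B and 2.82 in A at 0-2 hr, and it was called at 0-2 hr alone.

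The proapoptotic gene rpr (reaper), whose product blocks the inhibitor of apoptosis Diap1 and so frees caspases, had the largest upward move of the same 2799 genes. Its level was 677 in B and 92.4 in A at 2-4 hr, and 25.9 in B and 28.6 in A at 0-2 hr. The log2 change of rpr in the authors' deposited tables was 2.87 at 2-4 hr (DESeq adjusted p = 2.05e-09) and -0.14 at 0-2 hr (adjusted p = 1), a move of 3.02. The neighbouring cell death gene hid, another antagonist of Diap1, had 1526 in B and 338 in A at 2-4 hr, and 194 in B and 170 in A at 0-2 hr. For hid the authors' deposited tables give a log2 change of 2.17 at 2-4 hr (DESeq adjusted p = 7.15e-05) and 0.19 at 0-2 hr (adjusted p = 0.892). Levels of both genes were therefore close between the conditions at 0-2 hr, and several-fold apart at 2-4 hr.

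**Figure D2:**
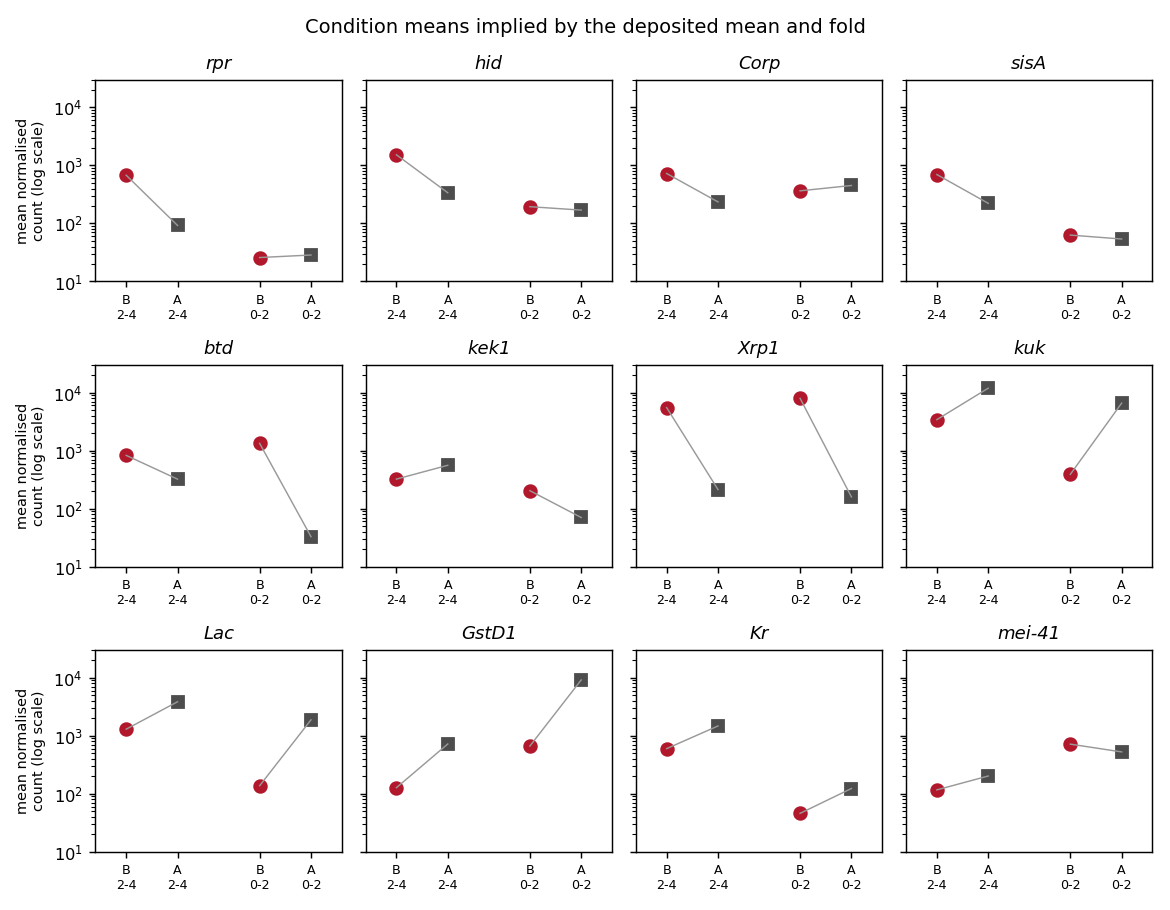
Mean normalised counts in condition B and condition A at 2-4 hr and 0-2 hr for selected genes, on a log axis, computed from the deposited means and fold changes (4 libraries in each condition, whose single values the tables do not hold). The B and A points of rpr lie together at 0-2 hr and apart at 2-4 hr, whereas those of btd are farthest apart at 0-2 hr.

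The 576 genes called higher in B at 2-4 hr alone had a median log2 change of 0.49 at 2-4 hr and 0.02 at 0-2 hr. Only 50 were 2-fold or more higher at 2-4 hr, and 31 moved by 1 or more. At 0-2 hr, 309 (53.6%) had the same sign, so the genes below the threshold at 0-2 hr were nearly evenly split. After rpr, the largest moves belonged to sano, hid, Corp and the noncoding RNA CR43264. sano, a gene with a role in planar cell polarity, had 359 in B and 61.1 in A at 2-4 hr, and 30.7 in B and 26.2 in A at 0-2 hr. Corp, a target of p53, had 726 in B and 235 in A at 2-4 hr, and 365 in B and 451 in A at 0-2 hr, and a log2 change in the authors' deposited tables of 1.63 (DESeq adjusted p = 1.42e-14) and -0.31 (adjusted p = 0.188). lncRNA:CR43264 had 324 in B and 84.1 in A at 2-4 hr, and 68.4 in B and 57.5 in A at 0-2 hr.

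The 817 genes called lower in B at 2-4 hr alone formed the largest class with a call. Their median log2 change was -0.56 at 2-4 hr and -0.04 at 0-2 hr, 165 were 2-fold or more lower at 2-4 hr, and 86 moved by 1 or more. At 0-2 hr 454 of them (55.6%) had the same sign. ush, a cofactor of GATA factors in the dorsal ectoderm and blood, had 119 in B and 420 in A at 2-4 hr, and 375 in B and 390 in A at 0-2 hr. Its log2 changes in the authors' deposited tables were -1.82 at 2-4 hr (DESeq adjusted p = 9.90e-09) and -0.05 at 0-2 hr (adjusted p = 1). mgl, which encodes the endocytic receptor Megalin, had 35.8 in B and 308 in A at 2-4 hr, and 27.4 in B and 71.6 in A at 0-2 hr. CG11122 had 288 in B and 826 in A at 2-4 hr, and 2235 in B and 1902 in A at 0-2 hr, so its level was lower at 2-4 hr in both conditions and lower still in B. A call at 2-4 hr alone does not always mean a larger change at 2-4 hr. The Hox gene abd-A, which sets the identity of abdominal segments, had 51.4 in B and 229 in A at 2-4 hr, and 6.68 in B and 117 in A at 0-2 hr. Its log2 change in the authors' deposited tables was -2.16 at 2-4 hr (DESeq adjusted p = 0.0422), where it was called, and -4.14 at 0-2 hr (adjusted p = 0.0753), where it was not; its move was 1.98, or 0.97 with a pseudocount of 10 added to each level.

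The 331 genes called higher in B at 0-2 hr alone had a median log2 change of 0.04 at 2-4 hr and 0.45 at 0-2 hr. Of these, 20 were 2-fold or more higher at 0-2 hr, and 24 moved by 1 or more. Their mean over both conditions was lower at 2-4 hr than at 0-2 hr for 273 of the 331 (82.5%), with a median ratio of the means of 0.614, against 0.890 over all members. CG13362 had 89.2 in B and 43.7 in A at 2-4 hr, and 60.5 in B and 3.85 in A at 0-2 hr. aru (arouser), an adaptor protein of the Eps8 family, had 50.8 in B and 90.1 in A at 2-4 hr, and 296 in B and 126 in A at 0-2 hr. The move of CG13362 was -2.95, or -1.46 with that pseudocount. For CG13362 the level in A was higher at 2-4 hr than at 0-2 hr, as for btd and CG14110, whereas for aru the level was lower at 2-4 hr in both conditions.

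The 476 genes called lower in B at 0-2 hr alone had a median log2 change of 0.03 at 2-4 hr and -0.42 at 0-2 hr. They included 16 genes 2-fold or more lower at 0-2 hr, and 8 that moved by 1 or more. Syt4, a synaptotagmin of membrane trafficking, had 20.2 in B and 33.9 in A at 2-4 hr, and 4.26 in B and 42.3 in A at 0-2 hr, a move of 2.57, or 1.34 with the pseudocount. vn (vein), a ligand of the EGF receptor, had 297 in B and 364 in A at 2-4 hr, and 103 in B and 278 in A at 0-2 hr, and a log2 change in the authors' deposited tables of -0.30 (DESeq adjusted p = 0.529) and -1.42 (adjusted p = 0.00207). PIP5K59B, a lipid kinase, had 137 in B and 114 in A at 2-4 hr, and 88.3 in B and 170 in A at 0-2 hr. Large moves were also found for CG42857 (1.73, or 1.13 with the pseudocount) and His2B:CG17949 (1.79). His2B:CG17949 is a copy of a repeated histone gene, so its count is uncertain. For vn and PIP5K59B, the gap between the conditions at 0-2 hr was thus small or of the other sign at 2-4 hr.

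Most genes called in the same direction at both times moved by less than 0.5, as did 72.5% of all members. Of the 308 called higher at both, 253 moved by less than 0.5, and the change was larger at 2-4 hr for 186 and smaller for 122. Their median log2 change was 0.87 at 2-4 hr and 0.80 at 0-2 hr. Of the 205 called lower at both, 151 moved by less than 0.5, with 101 larger and 104 smaller in size at 2-4 hr and medians of -0.93 at 2-4 hr and -0.86 at 0-2 hr. Pvf2, whose product is a growth factor for the receptor Pvr, had 500 in B and 2.74 in A at 2-4 hr, and 471 in B and 2.50 in A at 0-2 hr. Its log2 changes in the authors' deposited tables were 7.51 and 7.55, a move of -0.04, so its level was nearly the same at each time in each condition. Moves that round to 0.01 or less in size were also found for l(2)41Ab, Cpr, CG14985, CG9945 and Sbds among the genes higher at both, and for Tsp96F, Tl, AcCoAS, Epac and corto among those lower at both. Tl, the maternal Toll receptor of dorsoventral patterning, had 7575 in B and 9554 in A at 2-4 hr, and 7128 in B and 8947 in A at 0-2 hr.

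Some genes called at both times changed much more at one of them. kuk (kugelkern), a protein of the nuclear envelope that elongates nuclei during cellularisation, had 3416 in B and 11880 in A at 2-4 hr, and 389 in B and 6571 in A at 0-2 hr. The authors' deposited tables put the log2 change of kuk at -1.80 at 2-4 hr (DESeq adjusted p = 2.40e-32) and -4.08 at 0-2 hr (adjusted p = 0 as printed in the table). Lac (Lachesin), a protein of septate junctions, had 1297 in B and 3843 in A at 2-4 hr, and 137 in B and 1874 in A at 0-2 hr. Both genes thus had higher levels at 2-4 hr in both conditions, and B stood closer to A at that time. Similar upward moves among genes lower at both times were found for CG34224 (1.82), GstD3 (1.66) and Abd-B (1.61), the Hox gene of the posterior abdomen; with a pseudocount of 10 these were 0.70, 1.94 and 0.51.

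Among the genes higher at both times, the odorant-binding protein genes Obp56a and Obp56d moved by -2.79 and -1.57. Obp56a had 124 in B and 32.5 in A at 2-4 hr, and 68.6 in B and 2.61 in A at 0-2 hr. The pigment gene y moved by -2.48, with 174 in B and 11.4 in A at 2-4 hr, and 88.2 in B and 1.03 in A at 0-2 hr. These moves rest on levels near 0 in A: with a pseudocount of 10 they were -0.05 for y, -0.99 for Obp56a and -0.85 for Obp56d. The strains carry different y alleles in the labels and the fathers were yw, so an effect of the RNAi on y and one of the y alleles cannot be told apart. Arc2, a homologue of the mammalian Arc capsid protein, went the other way with a move of 1.42: it had 833 in B and 18.6 in A at 2-4 hr, and 810 in B and 48.4 in A at 0-2 hr.

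Calls in opposite directions were made for 86 genes. Of these, 0 were changed by 2-fold or more at both times, and 6 at either. The 41 genes called higher at 2-4 hr and lower at 0-2 hr had median log2 changes of 0.37 and -0.37. COX7A, a subunit of cytochrome c oxidase, had 3528 in B and 1994 in A at 2-4 hr, and 4988 in B and 6933 in A at 0-2 hr. The authors' deposited tables give it a log2 change of 0.82 at 2-4 hr (DESeq adjusted p = 7.84e-08) and -0.48 at 0-2 hr (adjusted p = 0.00730). UQCR-11 of respiratory complex III (move 0.93), the spliceosomal protein gene SNRPG (0.96), the sterol-binding protein gene Npc2a (0.90) and the ribosomal protein genes RpS15 (0.88) and RpS28b (0.87) were in the same class. So were CG40228 (0.97), CG13364 (0.87), plu (0.87), which acts in the early embryonic cell cycles, and Nca (0.84).

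The 45 genes called lower at 2-4 hr and higher at 0-2 hr had median log2 changes of -0.65 and 0.38, and 23 of them moved by 1 or more. The mean over both conditions was lower at 2-4 hr for 42 of the 45 (93.3%), with a median ratio of the means of 0.344. kek1, an inhibitor of the EGF receptor, moved most, with 322 in B and 557 in A at 2-4 hr, and 204 in B and 70.2 in A at 0-2 hr. The authors' deposited tables put the log2 change of kek1 at -0.79 at 2-4 hr (DESeq adjusted p = 0.00394) and 1.54 at 0-2 hr (adjusted p = 0.00149). PolQ, a DNA polymerase of end-joining repair, had 84.1 in B and 179 in A at 2-4 hr, and 493 in B and 279 in A at 0-2 hr. mei-41, the ATR kinase of the DNA damage checkpoint, had 117 in B and 202 in A at 2-4 hr, and 715 in B and 525 in A at 0-2 hr. Dhc64C, the heavy chain of cytoplasmic dynein, had 713 in B and 1378 in A at 2-4 hr, and 5347 in B and 4061 in A at 0-2 hr. For PolQ, mei-41 and Dhc64C, the level was lower at 2-4 hr than at 0-2 hr in both conditions, and by more in B. Others in this class were the ion transporter gene Ndae1 (move -2.14), CG18766 (-2.09), l(1)G0020 (-1.53), the Mediator subunit gene kto (-1.40), Vps13 (-1.40), Vps13B (-1.39), the cohesin subunit gene SA1 (-1.29) and CG3764 (-1.28).

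**Figure D3:**
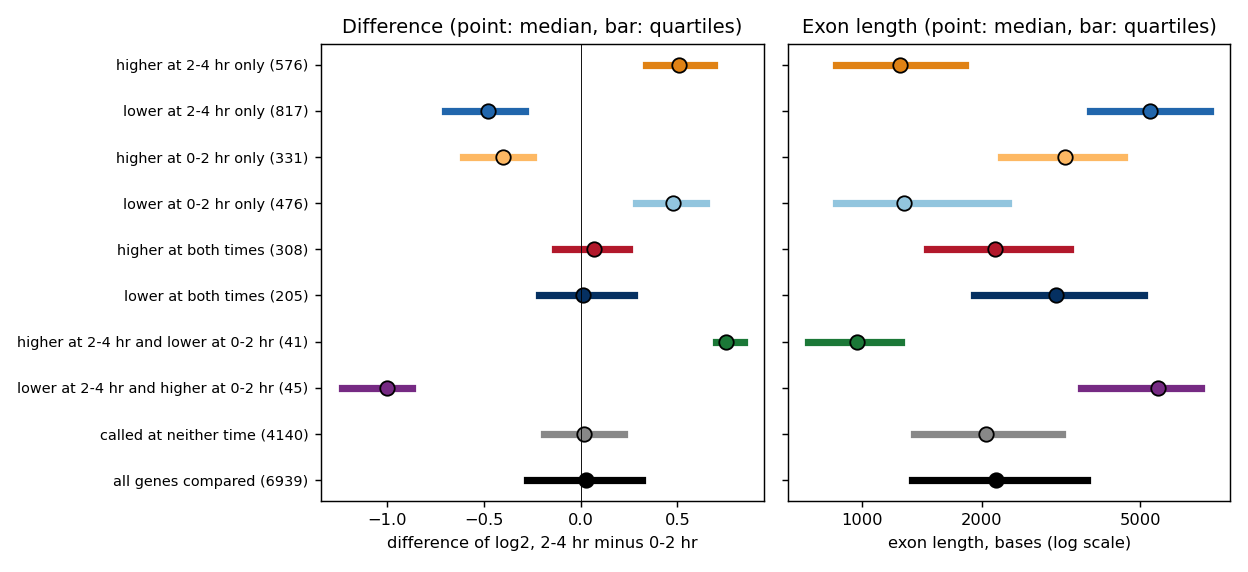
Move (log2 change at 2-4 hr minus that at 0-2 hr, left) and exon length in bases on a log axis (right) for the 8 classes of calls, the genes called at neither time and all 6939 members, with points at the median and bars over the quartiles. The class lower at 2-4 hr and higher at 0-2 hr has the longest median, 5546 bp, and the class with the reverse pattern the shortest, 970 bp.

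The classes differed in gene length. The median annotated exon length, which adds up all exons of a gene once, was 2167 bp over the members. It was 970 bp for the 41 genes higher at 2-4 hr and lower at 0-2 hr, and 5546 bp for the 45 with the reverse pattern. Genes higher at 2-4 hr alone had a median of 1245 bp and genes lower at 0-2 hr alone 1276 bp, against 5278 bp for genes lower at 2-4 hr alone and 3230 bp for genes higher at 0-2 hr alone. The classes called in the same direction at both times had medians of 2157 bp for higher and 3064 bp for lower. The share of X-linked genes was 22.5% in the class lower at 2-4 hr alone, 15.8% in the class higher at 2-4 hr alone and 17.9% over all members.

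Across the 6598 members with an exon length (95.1%), the move had a Spearman correlation of -0.55 with length. The correlation of length with the log2 change itself was -0.47 at 2-4 hr and 0.20 at 0-2 hr, so the sign differed between the times. When these genes were split into 10 equal groups by length, the shortest (median 691 bp) had a median log2 change of 0.26 at 2-4 hr and -0.27 at 0-2 hr. In that group 26.5% were called higher and 3.64% lower at 2-4 hr, and 3.18% higher and 21.5% lower at 0-2 hr. The longest group (median 7884 bp) had a median log2 change of -0.45 at 2-4 hr and 0.0089 at 0-2 hr. In it 3.48% were called higher and 55.5% lower at 2-4 hr (366 of 660 genes), and 11.8% higher and 6.36% lower at 0-2 hr. These correlations run across genes that share libraries, annotation and, for long genes, more reads at a given level, and are a description.

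**Figure D4:**
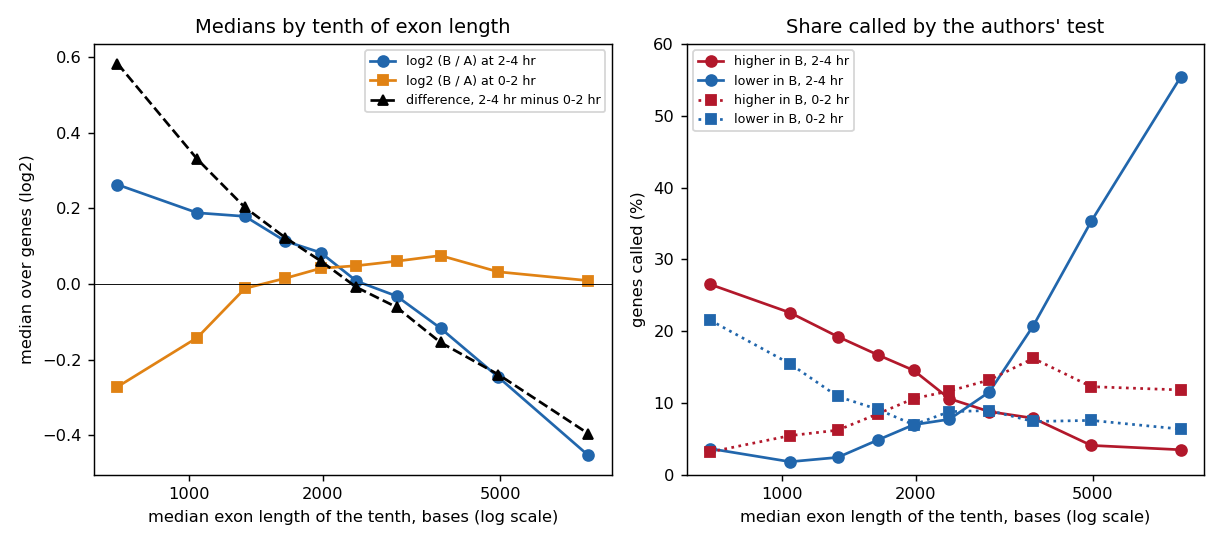
Median log2 change (B over A) at 2-4 hr and at 0-2 hr with the median move, and percent of genes called higher or lower, for 10 equal groups of members ordered by exon length on a log axis. The median at 2-4 hr runs from 0.26 in the shortest group to -0.45 in the longest, and that at 0-2 hr from -0.27 to 0.0089.

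A length-centred move was therefore computed, in which the median move of genes of like length, in 20 bins, was subtracted; this alternative was chosen after the data were seen. The length-centred move was -3.91 for btd, 2.61 for rpr, 2.15 for hid, 2.30 for kuk, -2.07 for kek1 and -0.79 for mei-41. It was 0.75 for COX7A and 0.34 for RpS15, less than their moves of 1.30 and 0.88. Over classes, the median length-centred move was 0.22 for genes higher and -0.22 for genes lower at 2-4 hr alone, against 0.51 and -0.48 without centring. It was 0.34 for the 41 genes higher at 2-4 hr and lower at 0-2 hr, against 0.75, and -0.84 for the 45 with the reverse pattern, against -1.0. Those medians describe classes that were chosen by the same log2 changes and are no test.

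Genes of cell death and the DNA damage response, a list of 22 members, had 10 called higher and 4 lower at 2-4 hr, and 10 higher and 1 lower at 0-2 hr. Over all members 13.3% were higher and 15.4% lower at 2-4 hr, and 9.86% higher and 10.4% lower at 0-2 hr. The median move of the list was 0.01 against 0.026 over all genes, and subtracting each table's own median turns its sign. The Diap1 antagonists rpr and hid and the p53 genes Corp and p53 were called higher at 2-4 hr alone, whereas the caspase gene Dronc was higher at both times and the death ligand gene egr was lower at 2-4 hr alone. The repair genes Ku80, rad50, mre11 and Irbp were higher at both times, with moves of -0.65, -0.18, 0.02 and -0.02 in that order. nbs, a partner of rad50 and mre11, was higher at 0-2 hr alone, the checkpoint kinase gene tefu was lower at 2-4 hr alone, and 5 of the 22 were called at neither time. mei-41 and Diap1, the caspase inhibitor itself, were lower at 2-4 hr and higher at 0-2 hr. The bZIP stress factor Xrp1 was higher at both, with 5496 in B and 213 in A at 2-4 hr, and 7931 in B and 159 in A at 0-2 hr.

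Calls of zygotic patterning genes were mostly made at 2-4 hr, and mostly lower in B, against 15.4% lower over all members. Long genes were called lower more often at that time: 55.5% in the longest of the 10 length groups and 35.3% in the next. Median exon lengths were 5062 bp for segment polarity, 6711 bp for Hox, 2341 bp for pair-rule, and 3314 bp for dorsal ectoderm and BMP. The part of length in these counts was not tested. All 5 segment polarity members were called lower at 2-4 hr and 0 at 0-2 hr, although the median log2 change was -1.69 at 2-4 hr and -1.97 at 0-2 hr. Of 8 pair-rule members, 4 were called lower at 2-4 hr and 0 at 0-2 hr, with medians of -0.65 and -1.28. All 4 Hox members were called lower at 2-4 hr, and 1, Abd-B, at 0-2 hr, with medians of -2.40 and -3.73 and a median move of 1.32. Of 11 dorsal ectoderm and BMP members, 7 were called lower at 2-4 hr and 1 at 0-2 hr. The larger changes at 0-2 hr rest on low levels: with a pseudocount of 10 added to each level, the median move was 0.37 for the Hox list, 0.09 for segment polarity and -0.0045 for pair-rule, against 1.32, 0.38 and 0.18 without it. Late muscle markers without Tm1, given above, were also lower in B at both times, and their part in these values was not tested. The segment polarity factor en, for example, had 22.5 in B and 159 in A at 2-4 hr, and 6.42 in B and 59.1 in A at 0-2 hr, with a DESeq adjusted p of 4.69e-05 and 0.0585 in the authors' deposited tables. Of 7 mesoderm members and of 5 neuroectoderm members, 2 each were lower at 2-4 hr and 0 at 0-2 hr, and of 4 trunk gap members, Kr alone was lower at 2-4 hr and 0 were called at 0-2 hr. Of 7 head gap members, btd was the only one called higher at 2-4 hr; ems and oc were lower at that time, and cnc was higher at 0-2 hr alone.

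Early zygotic and cellularisation genes behaved differently from one another. Of 14 members, 4 were called higher and 2 lower at 2-4 hr, and 0 higher and 1 lower at 0-2 hr. Over all members the shares were 13.3% higher and 15.4% lower at 2-4 hr, and 9.86% and 10.4% at 0-2 hr. The median exon length of the list was 1098 bp. In the length group with a median of 1044 bp, 22.6% were called higher at 2-4 hr. The higher ones were sisA, nullo, CG13711 and CG13712. With length centred, the moves of sisA, nullo and CG13711 were 0.88, 0.30 and 0.16, against 1.42, 0.84 and 0.71. sisA, an X-linked counting element of sex determination, had 697 in B and 222 in A at 2-4 hr, and 63.0 in B and 53.9 in A at 0-2 hr. nullo, which acts in the membrane furrows of cellularisation, had 836 in B and 586 in A at 2-4 hr, and 61.8 in B and 77.8 in A at 0-2 hr. In contrast to these, kuk was lower at both times and run at 2-4 hr alone. Of the 7 Bearded family members, which inhibit Notch ligand endocytosis, 0 were called at either time. A move of 1 or more was found for 5 of the 7, against 4.87% of all members. The median log2 change of the 7 was -0.06 at 2-4 hr and -1.64 at 0-2 hr. Their median move was 1.72, or 1.18 with length centred and 1.40 with a pseudocount of 10, at a median exon length of 759 bp.

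Of 20 maternal axis and germ plasm members, 2 were called higher and 5 lower at 2-4 hr, and 3 higher and 2 lower at 0-2 hr, and 12 were called at neither time. Over all members 13.3% were higher and 15.4% lower at 2-4 hr, and 9.86% higher and 10.4% lower at 0-2 hr, so these counts lie near the background. tud, a scaffold of the germ plasm, was lower at 2-4 hr and higher at 0-2 hr, with 1367 in B and 1968 in A at 2-4 hr, and 4870 in B and 3622 in A at 0-2 hr. osk, which assembles germ plasm, had 3421 in B and 5223 in A at 2-4 hr, and 15142 in B and 14377 in A at 0-2 hr, and was called at 2-4 hr alone. pgc, a small germ cell protein that blocks transcription, went the other way at 2-4 hr, with 1399 in B and 828 in A, and had 3403 in B and 4172 in A at 0-2 hr. Among 14 members that act in the clearance of maternal RNA, 2 were called higher and 5 lower at 2-4 hr, and 4 higher and 1 lower at 0-2 hr. The shares over all members were 13.3% and 15.4% at 2-4 hr, and 9.86% and 10.4% at 0-2 hr. The median move of this list was -0.27, and 0.0064 with length centred, at a median exon length of 4070 bp. smg, the main RNA-binding factor of the clearance, was lower at 2-4 hr alone, and bel and brat were lower at 2-4 hr and higher at 0-2 hr. With length centred, the moves of bel and brat were -0.93 and -0.04, against -1.10 and -0.49.

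For dosage compensation, the process in which CLAMP is best known, 5 of 9 dosage compensation members were called lower at 2-4 hr, where 15.4% of all members were, and 0 at 0-2 hr, where JIL-1 was called higher. These were msl-2, msl-3, mle, Set2 and Sxl, and 8 of the 9 members had a move below 0. msl-2, the male-limiting subunit of the complex, had 245 in B and 472 in A at 2-4 hr, and 57.0 in B and 71.7 in A at 0-2 hr. Sxl, the sex determination switch that represses msl-2 in females, had 2771 in B and 4837 in A at 2-4 hr, and 4575 in B and 4597 in A at 0-2 hr. The median move of the list was -0.42, and -0.24 with length centred, at a median exon length of 5021 bp. Of 8 members that bind GA repeats or act as pioneer factors, 4 were lower at 2-4 hr and 2 at 0-2 hr. Over all members the shares called lower were 15.4% and 10.4%. Clamp itself, the target of the hairpin, is 1 of the 8 and is counted as lower at both times. The pioneer factor zld had 13720 in B and 22658 in A at 2-4 hr, and 14275 in B and 14090 in A at 0-2 hr, and a log2 change in the authors' deposited tables of -0.72 (DESeq adjusted p = 5.66e-10) and 0.02 (adjusted p = 1). Both zld and Sxl are in the longest of the 10 length groups, where 55.5% were called lower at 2-4 hr. With length centred, the moves of zld, Sxl and msl-2 were -0.30, -0.35 and -0.44, against -0.74, -0.80 and -0.61.

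Stress and detoxification genes were called largely at both times. Of 16 members, 10 were higher and 3 lower at 2-4 hr, and 9 higher and 4 lower at 0-2 hr, against 13.3% and 15.4% over all members at 2-4 hr and 9.86% and 10.4% at 0-2 hr. The glutathione S-transferases split by subfamily: GstE3, GstE5, GstE6, GstE7, GstE8 and GstE9 were higher at both times, and GstD1, GstD3 and GstD9 were lower at both. GstE8 had 469 in B and 88.5 in A at 2-4 hr, and 517 in B and 204 in A at 0-2 hr. GstD1 had 127 in B and 719 in A at 2-4 hr, and 663 in B and 9137 in A at 0-2 hr. The level of GstD1 was thus lower at 2-4 hr in both conditions, and its move was 1.28. These genes form clusters of similar sequence, so the split of reads among neighbours is uncertain. Of 8 heat shock members, 4 were higher at 2-4 hr and 3 at 0-2 hr, and Hsp23 had 2828 in B and 804 in A at 2-4 hr, and 1758 in B and 900 in A at 0-2 hr. Of 7 members of JAK/STAT and PVR signalling, Pvf2 was higher at both times, the receptor gene dome was lower at 2-4 hr alone, and Stat92E and Pvf1 were lower at 0-2 hr alone.

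Ribosomal, mitochondrial and proteasome lists had small positive median moves, of which the mitochondrial ones were negative with length centred. Of 81 ribosomal protein members, 15 were called higher and 0 lower at 2-4 hr, and 0 higher and 46 lower at 0-2 hr, where 10.4% of all members were called lower. Their median log2 change was 0.22 at 2-4 hr and -0.37 at 0-2 hr, and 80 of the 81 had a move above 0. RpL15 had 27007 in B and 21618 in A at 2-4 hr, and 17236 in B and 23908 in A at 0-2 hr. The median move was 0.59, and 0.16 with length centred, at a median exon length of 944 bp. Of 70 mitochondrial ribosomal protein members, 7 were higher at 2-4 hr and 13 lower at 0-2 hr, against 13.3% higher and 10.4% lower over all members, and their median move was 0.35, or -0.11 with length centred. Of 15 mitochondrially encoded members, 7 were called higher at 2-4 hr and 3 at 0-2 hr, with a median move of 0.24, or -0.10 with length centred. Of 32 proteasome members, 24 were called higher and 1 lower at 2-4 hr, where 13.3% of all members were called higher, and 8 higher and 1 lower at 0-2 hr, against 9.86% higher. The ATPase subunit gene Rpt3 had 1593 in B and 1024 in A at 2-4 hr, and 2776 in B and 2707 in A at 0-2 hr. Of 32 cell cycle and replication members, 10 were called lower and 1 higher at each time, against 15.4% lower at 2-4 hr and 10.4% lower at 0-2 hr over all members, and 15 were called at neither time. Of 6 histone variant genes, His2Av and His4r were lower at 0-2 hr alone and His3.3A was higher at 2-4 hr alone.

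**Figure D5:**
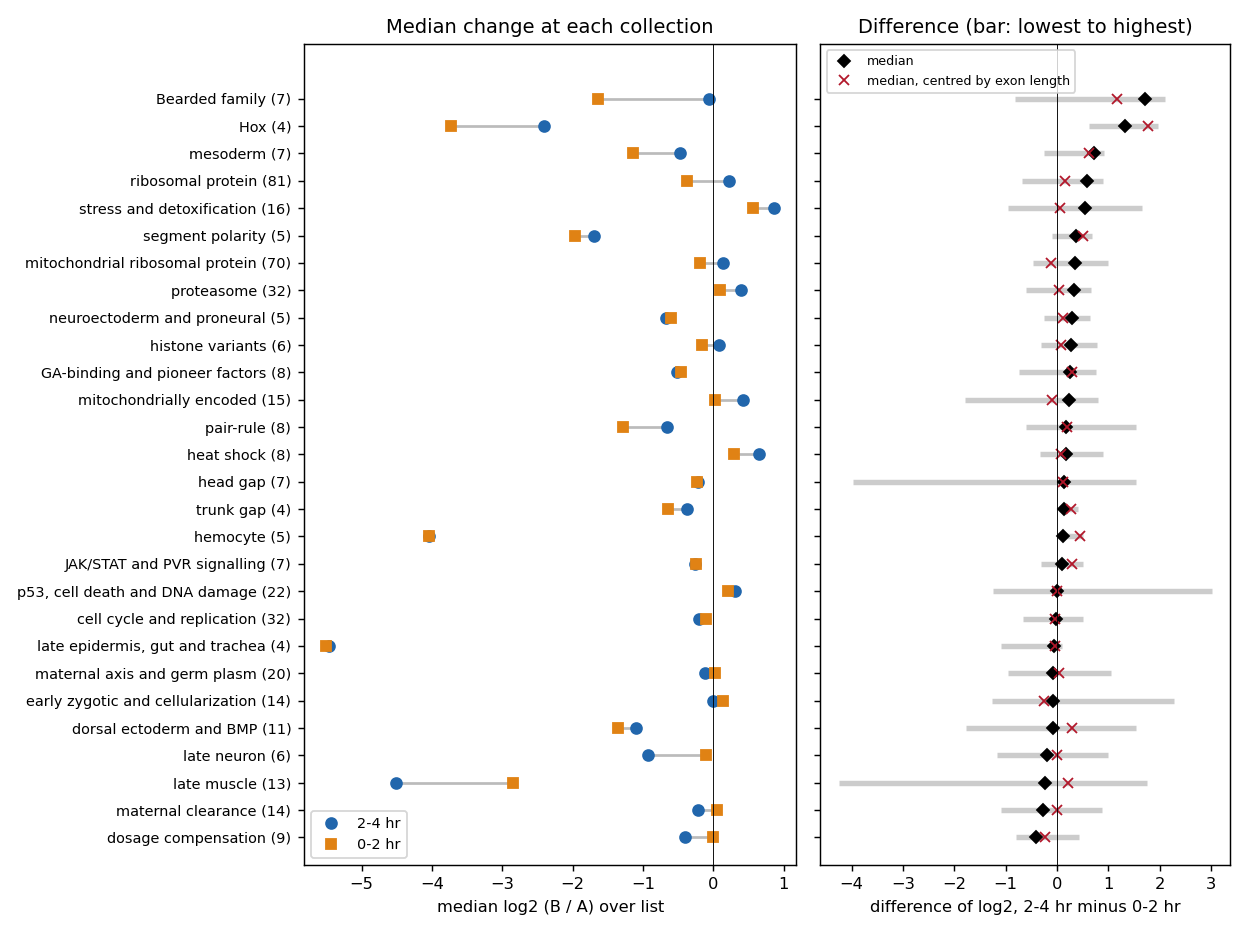
Median log2 change (B over A) of each gene list at 2-4 hr and 0-2 hr (left), and its median move with a bar from the lowest to the highest member beside the median with length centred (right), for lists with 4 or more members, whose number stands in brackets. The Bearded and Hox lists have the most positive median moves, 1.72 and 1.32, and the dosage compensation list the most negative, -0.42.

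Marker lists of other cell types differed in how many genes were members: 13 of 15 for late muscle, 6 of 13 for late neuron and 5 of 12 for hemocyte. The eggshell and follicle cell list had 1 member of 19. Of 17 genes of late epidermis, gut and trachea, 4 were members. Cht2 alone of these was called, lower in B at both times. Shares called over all members were 13.3% higher and 15.4% lower at 2-4 hr, and 9.86% higher and 10.4% lower at 0-2 hr. Of 13 late muscle members, 0 were called at 2-4 hr and 1, Tm1, was lower at 0-2 hr. Their median log2 change was nevertheless -4.51 at 2-4 hr and -2.85 at 0-2 hr, so the markers had far lower means in B without passing the test. Of 6 late neuron members, elav and nrv2 were lower at 2-4 hr, and Syx1A was higher at 0-2 hr. Summed over 12 hemocyte markers, the level was 1983 in B and 2703 in A at 2-4 hr, and 3228 in B and 3304 in A at 0-2 hr. Without srp and crq, which make up most of it, the sum was 101 in B and 730 in A at 2-4 hr, and 43.5 in B and 368 in A at 0-2 hr. The sums without srp and crq were also added after the values were seen. The median log2 change of the 5 hemocyte members was -4.04 at 2-4 hr and -4.05 at 0-2 hr. Sums over 11 sperm markers were 12.1 in B and 3.59 in A at 2-4 hr, and 1.48 in B and 1.55 in A at 0-2 hr, with 0 members. Sums over 19 eggshell and follicle cell markers were 86.1 in B and 87.0 in A at 2-4 hr, and 601 in B and 791 in A at 0-2 hr.

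The minimum of 20 left out 459 genes that reached it at 2-4 hr alone, 97 at 0-2 hr alone and 8186 at neither time. Calls outside the 6939 members numbered 218 at 2-4 hr (126 higher, 92 lower) and 57 at 0-2 hr (44 higher, 13 lower). Of these, 100 at 2-4 hr and 46 at 0-2 hr had a mean under 20 at the time of the call. One further gene, Cpr65Ea, passed the minimum but was listed at 0 in B at both times in the authors' deposited tables, so it has no log2 change. Just inside the minimum, CG3999, snoRNA:Me28S-A1322, phu, CG10621 and lncRNA:CR43287 had moves of 0.16, 0.88, -0.12, -0.63 and 0.98, in that order. Just outside it, His1:CG33801, rempA, CG14304, snRNA:U2:34ABc and trk had moves of -0.23, -0.37, 0.11, 0.06 and 0.71, in that order.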

How the data were processed

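Per the submitters' processing notes, reads were handled with TopHat2 2.0.13, HTSeq 0.5.4p3 and DESeq on genome build dm3; the role of each tool is not given there. Per the file headers, each of the 2 deposited tables gives per gene a mean normalised count (a signal, whose depth is unknown), a fold change (a ratio), its log2 value and a p-value with its adjusted p-value, made by the authors from the libraries of 1 time. Another 4 columns of condition means were not used, since no label ties A or B to a genotype; condition means were computed from the mean and the fold, with 4 libraries in each condition. Where the labels do not say that libraries came from separate collections, a p-value reflects no more than library-to-library variation, which may be technical.

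Tables were joined on gene ID with Python 3.11.15, numpy 2.4.6 and pandas 2.3.3, and figures were drawn with matplotlib 3.10.9. Symbols were found for 15002 IDs and not for 680. An Ensembl annotation of a later assembly than dm3 gave exon lengths and chromosome arms, and no coordinate of it was used. The members and the 30 gene lists were chosen with earlier results of these data known. Named genes are Clamp, btd and rpr, and the 5 genes of each class with the largest move, or 12 of each opposite class. The 5 with the smallest move of the classes called at both times and up to 4 called genes of each list were added. A few others complete a count of calls. Not every picked gene is described above. Those without a symbol had moves of -3.74 (FBgn0033674) and -2.29 (FBgn0039000), both higher at 0-2 hr alone, and -1.87 (FBgn0035347), lower at 2-4 hr alone. The others were FBgn0058196 (1.08) and FBgn0034967 (0.81), both higher at 2-4 hr and lower at 0-2 hr. No interaction test was made from the means. The filter on the mean, the move, the count of called genes, the condition means and the length centring were checked on simulated data. Calls in those data were at 2-4 hr alone, and the join of the tables was not simulated. Alternatives were other minimums of the mean, other adjusted p thresholds, a 2-fold minimum, a pseudocount of 10 and the centring of each table or of exon length.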

Additional observations from a re-analysis of the deposited data

How the results depend on the processing

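The median move was 0.026 and lay between 0.011 and 0.033 under the other minimums, the pseudocount and the centring of each table; length centring sets it to 0 by construction. Counts depended on the threshold. With an adjusted p under 0.01, 375 genes were higher at 2-4 hr alone (576 as reported), and the opposite classes held 8 genes higher and 12 lower at 2-4 hr (41 and 45). With an adjusted p under 0.1, 99 genes were higher at 2-4 hr and lower at 0-2 hr. Where a call also needed a 2-fold change, 75 were higher and 189 lower at 2-4 hr alone, 37 higher and 27 lower at 0-2 hr alone, 109 higher and 74 lower at both times, and 0 in each opposite class. Of genes called at either time, 77 moved upward and 124 downward by 1 or more. The upward count was 31 with a mean minimum of 100 and 39 with a pseudocount of 10. The downward count was 69 with the 2-fold call and 69 with length centred, an alternative chosen after seeing the data. Length centring shifted the moves of 15 named genes by more than the SD of the move over all members and 121 by less, and the pseudocount shifted 19 by more and 122 by less. The pseudocount turned the sign for 14 named genes, 7 of them with a move under 0.05 in size and the others en, pnr, Ubx, nrv2, Kr, ftz and opa; it also took y to -0.05, against -2.48. Length centring turned 13, 8 of them under 0.05.

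The main limit is that the tables hold means: depth and spread of single libraries are unknown, and a call at one time and not at the other does not show that the effects differ. Clamp RNAi and control mothers also differed in chromosomes besides the hairpin. For genes other than the target Clamp, an effect of the RNAi and one of the strain background therefore cannot be told apart. No paired analysis was possible because the tables hold no values of single libraries, and for the same reason leaving out single libraries was not run.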
